A study of Caenorhabditis elegans with 4 samples.

Results

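The baseline described here is the transcriptome of untreated young adult Caenorhabditis elegans hermaphrodites, read on 1 of the 4 Affymetrix C. elegans Genome arrays of a study of worms exposed to BPA, DEHP or NP. It was chosen by its label as the only array of unexposed animals, and the exposed arrays were not compared with it. Per the labels, the worms were wild type and 3 days old. They came from a culture synchronised with hypochlorite and were kept on nematode growth medium with OP50 bacteria as food. Total RNA of whole worms was isolated with the RNeasy Mini kit and given a biotin label. One label field speaks of fibroblasts where the others speak of worms, and the array was treated as one of worms. The label does not say whether these worms went through the handling given to the exposed ones. With 1 array there was no replicate, so no intensity below has an error and no test between samples was made.

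A young adult hermaphrodite is a worm that has stopped molting and makes oocytes, which are fertilised by sperm that it made and stored during its last larval stage. Its intestine makes yolk proteins that are taken up by growing oocytes, its epidermis has laid down the adult cuticle from collagens, and its germline fills much of the body. An Affymetrix probe set is a group of short probes to 1 transcript, and its intensity is read from the labelled RNA bound to them. Probe sets bind with different strength, so an order by intensity is an order of signal and not of the number of RNA molecules. In whole worms, fewer cells of a type and less RNA per cell cannot be told apart.

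The array held 22625 probe sets. Of these, 77 were control probe sets, and the other 22548 were ranked. The platform annotation gave 1 gene to 20766 of them, several genes to 887 and no gene to 895. By the probe sets assigned to 1 gene, 17118 genes were read. Probe sets of the s and x types, which can match more than 1 transcript, made up 6711 or 29.8%. The deposited intensities ran between 0.0974 and 27574, with a median of 141, a 25th percentile of 31.7 and a 75th percentile of 629. Signal was concentrated in few probe sets. The brightest 1% held 23.3% of the summed intensity and the brightest 5% held 50.2%, while the dimmer 50% held 2.93%.

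Control probe sets for genes foreign to the worm gave a guide to background. The 5 yeast probe sets read 1.14 to 18.9, and the 3 for the bacterial gene trp read 1.37 to 16.9. The 3 control probe sets for gly-14 read 1.97 to 30.5, but this is a gene of the worm itself and not a foreign control. All of these lay under the 25th percentile of the array. The hybridisation spikes bioB, bioC, bioD and cre are added in rising amounts, and their medians were 199, 554, 2309.8 and 8546. Control probe sets at both ends of a transcript gave 3' over 5' ratios of 1.19 for actin, 0.951 for Gapdh, 1.63 for catalase and 6.66 for ubiquitin.

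**Figure D1:**
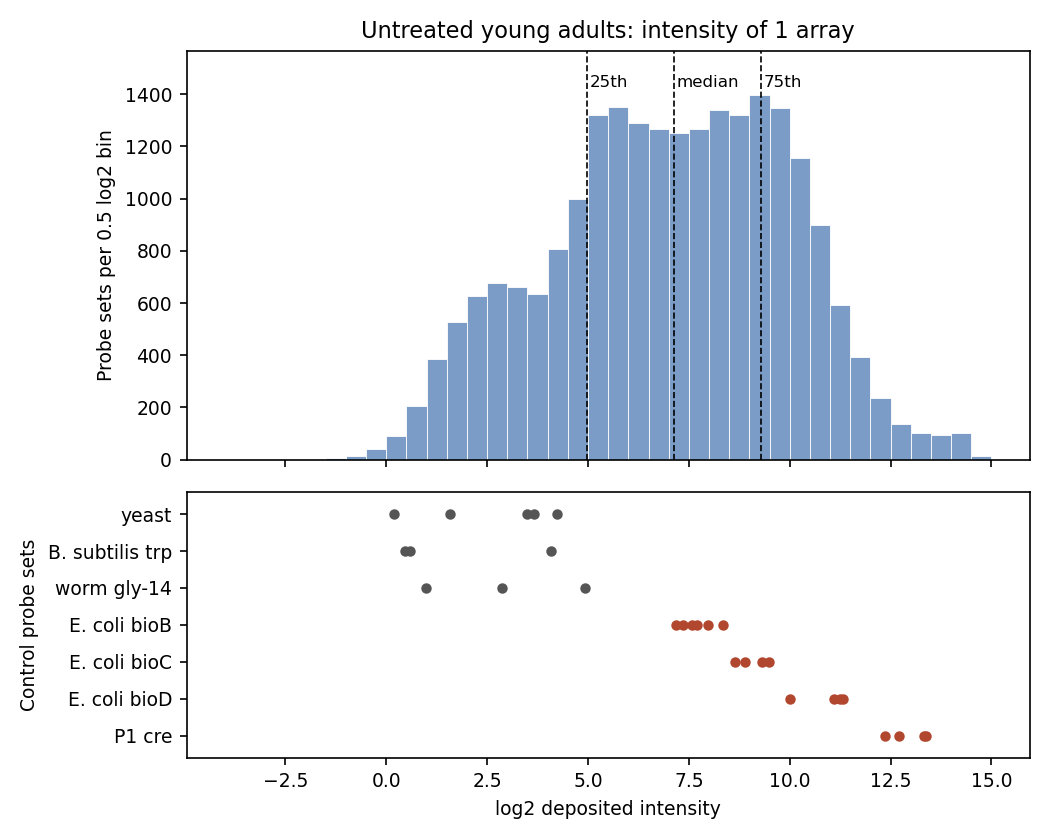
Upper panel: number of ranked probe sets per bin of 0.5 of log2 deposited intensity on the untreated array, with dashed lines at the 25th percentile (31.7), the median (141) and the 75th percentile (629). Lower panel: 1 point per control probe set on the same axis. The yeast, trp and gly-14 control probe sets lie under the 25th percentile, and the spikes bioB to cre lie at or above the median.

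Genes were ranked by the probe sets assigned to 1 gene only. The 30 brightest genes were mostly parts of the ribosome, with gut proteases, yolk, cuticle and muscle among them. Their intensities ranged between 20962 and 25312, which is only 1.21-fold. The brightest genes so ranked were asp-6 at 25312 and asp-1 at 25112, both cathepsin D-like aspartic proteases. Among all probe sets they were ranked 5 and 6. The ribosomal protein genes rpl-21 at 24015 and rps-4 at 23556 were ranked 3 and 5 among genes. Between them stood col-125, a cuticle collagen, at 23926. The muscle myosin light chain gene mlc-2 read 23515, with its other probe set at 4936. The yolk protein genes vit-6 and vit-5 read 23262 and 23209. The small heat shock protein sip-1, a chaperone of embryos, read 22750 and a further cuticle collagen, col-119, read 22689. The elongation factor eef-1A.1, which brings charged tRNAs to the ribosome, read 21635. The remaining genes among the 30 were ribosomal, so that 21 of 30 belonged to that family. They included rpl-34 at 23162, rps-3A at 22996 and rplp-0, a protein of the ribosomal stalk, at 22666. The gene rpl-8 read 23114 on 1 probe set and 8.14 on the other assigned to it alone. Of the 30, 22 were read by a probe set of the s or x type, 17 had several probe sets, and 2 (mlc-2 and rpl-8) had probe sets over 4-fold apart. The brightest probe set of the whole array, at 27574, was assigned to a pair of cuticle collagen genes. Rank 2, at 25887, was a probe set that rpl-8 shared with another gene. Ranks 3 and 4, at 25801 and 25400, were assigned to a further pair of cuticle collagen genes. These shared probe sets are not in the gene ranking. The probe set ranked ninth, at 23688, had no assigned gene.

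**Figure D2:**
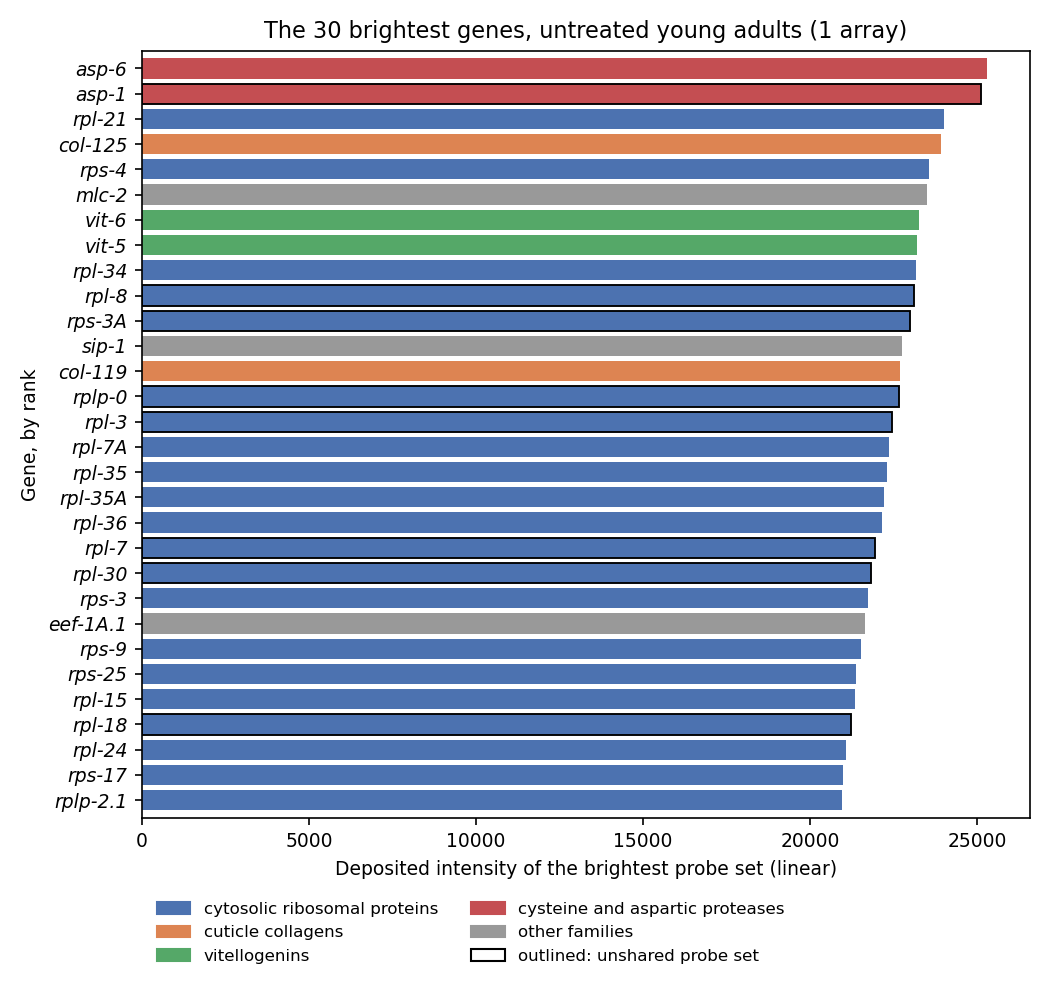
Deposited intensity (linear axis starting at 0) of the brightest probe set of each of the 30 brightest genes, coloured by family. Outlines mark probe sets of the unshared type, and probe sets assigned to several genes are left out. The bars span 20962 to 25312, and 21 of the 30 are cytosolic ribosomal protein genes.

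Probe sets were sorted into 86 gene families by gene symbol, together 26.05% of the ranked probe sets and 43.6% of the signal. A family was called bright if at least 75% of its members lay at or above the 75th percentile, where 25% of all probe sets lie, and at background if at least 75% lay under the median, where 50% of all lie. The median, 141, lies above every yeast, trp and gly-14 control probe set, of which the highest read 30.5. A family at background by this rule can thus read mostly above those controls. Under the 25th percentile lay 18 of 125 probe sets of neuropeptide and amine receptors and 5 of 37 of globins, both called at background. Of the 85 families with at least 5 probe sets, 16 were bright, 17 were at background and 52 were neither. The bright families held 2.54% of the probe sets and 23.4% of the signal. The background families held 11.5% of the probe sets and 1.597% of the signal. Of the 86 families, 6 held at least 1% of the signal each, and together they held 23.5%. The rule's edges were narrow: MATH and BATH proteins were called at background with 75.4% of members under the median, while ligand-gated channels were not, with 74.8%. Metallothioneins and ferritins, grouped with the cdr genes, were called bright with 75% of members at or above the 75th percentile. Muscle genes were not, with 71.4%.

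**Figure D3:**
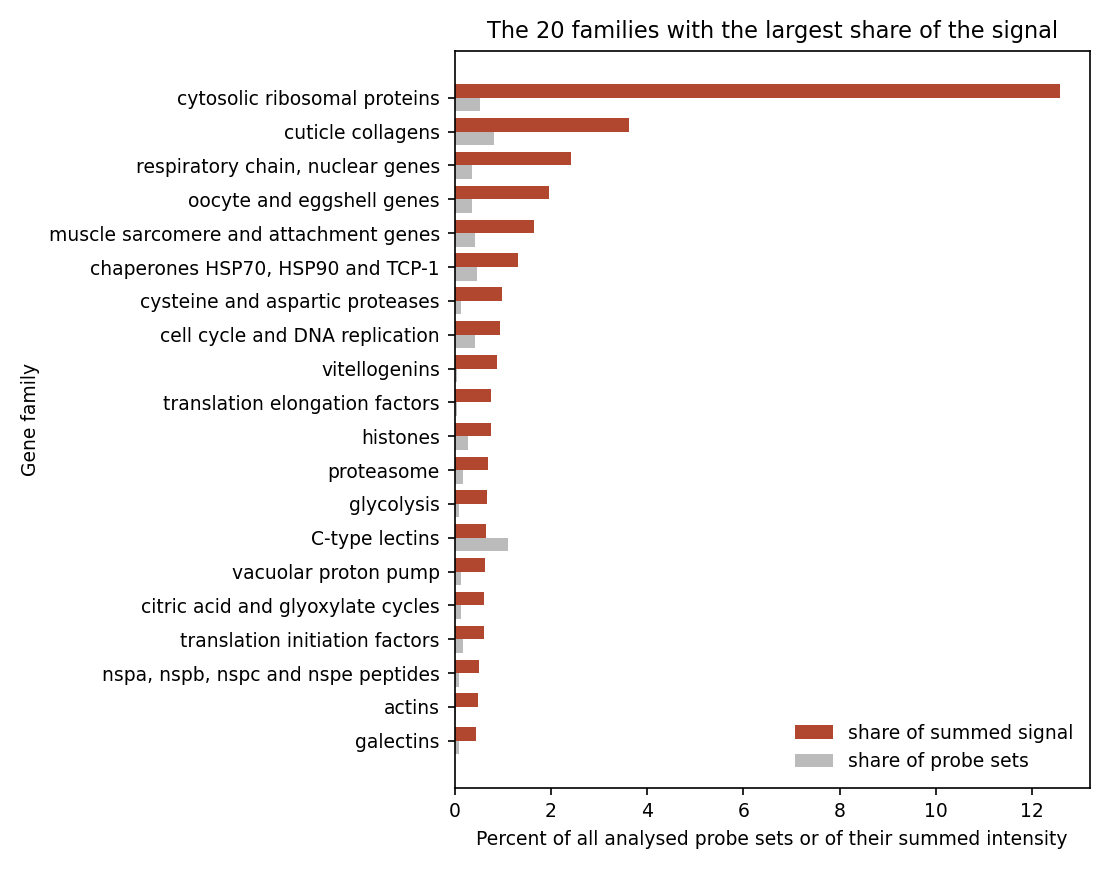
The 20 families with the largest share of the summed intensity of the untreated array, with the share of summed signal above the share of ranked probe sets for each (percent, axis starting at 0). Cytosolic ribosomal proteins hold 12.6% of the signal with 0.537% of the probe sets, and C-type lectins are the family in the plot whose share of probe sets is the larger of both.

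The machinery of protein synthesis held the most signal of any class, 14.8% over 5 families. Cytosolic ribosomal proteins held 12.6% of the signal with 0.537% of the probe sets, and 116 of their 121 probe sets lay among the brightest 5%, which holds 5.00% of all probe sets. Their median was 17663. The 45 large-subunit genes had a median of 19163, the 32 small-subunit genes 18477 and the 4 stalk genes 20497, so the subunits lay close together. All 32 small-subunit genes read at least 11026. A single gene, rpl-42, lay under the array's median at 36.3, and is named because it stands apart. The elongation factors had a median of 11146 over 12 probe sets: eef-2, which moves the ribosome along the messenger, read 18983, eef-1G read 11437 and eef-1B.1 read 10874. Among initiation factors iff-1, a germline form of eIF5A, was brightest at 15266, and 28 of 41 probe sets lay at or above the 75th percentile. The ribosome of mitochondria was also bright but at another level, with a median of 1035 over 65 probe sets. Its brightest members were mrps-11 at 3256, mrpl-51 at 2877, mrpl-34 at 2848 and mrps-5 at 2636. Of tRNA synthetases, 28 of 46 probe sets lay at or above the 75th percentile, with kars-1, which charges lysine tRNA, at 5466.

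RNA processing and protein turnover followed. The Sm and SR proteins, which build the spliceosome and guide it, had 28 of 30 probe sets at or above the 75th percentile and none under the median. The Sm core genes snr-3, snr-7, snr-5 and snr-1 read 4566, 3742, 3593 and 3457. The Y-box proteins, which bind messenger RNA and are abundant in the germline, read 11696 for cey-2, 6978 for cey-3, 6943 for cey-4 and 5976 for cey-1. The proteasome was even among its parts: medians were 3409 for the 7 alpha and 3376 for the 7 beta subunits of the core, 3839.8 for the 6 ATPases of the cap and 2785 for its 13 other subunits. Its brightest genes were rpt-1 at 5257, rpn-7 at 4632, pas-6 at 4586 and rpt-3 at 4464. Of the folding machinery, which held 1.31% of the signal, the endoplasmic reticulum chaperone crt-1 (calreticulin) read 15999, the HSP70 hsp-1 read 11770.2, hsp-90 read 10840.2 and the cyclophilin cyn-5 read 8724.

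Of the 216 probe sets for energy metabolism, 166 lay at or above the 75th percentile and 35 under the median, of which 30 were globins. The nuclear genes of the respiratory chain held 2.43% of the signal, with 80 of 84 probe sets at or above the 75th percentile. Medians differed between complexes, at 3087 for the 32 genes of complex I, 3317 for 5 of complex II, 3614 for 6 of complex III, 9595 for 7 of complex IV and 8533 for 11 of the ATP synthase. The cytochrome c genes lay far apart: cyc-2.1 read 15899 and its paralogue cyc-2.2, named because it was the one member under the median, read 12.2. The ATP synthase subunits atp-1 and atp-2 read 14239 and 13909, and isp-1, the Rieske protein of complex III, read 12282. Of 8 genes of the mitochondrial genome, 7 lay among the brightest 5%, led by ND4 at 14461, COX3 at 10623, COX1 at 8744 and CYTB at 5800.1. The eighth, ND5, read 214. Of glycolysis, aldo-2 (aldolase) read 16666, the glyceraldehyde-phosphate dehydrogenases gpd-3 and gpd-2 read 14798 and 14526, and ldh-1 (lactate dehydrogenase) read 4167. In the citric acid and glyoxylate cycles mdh-1 read 9625, cts-1 (citrate synthase) read 7953, icl-1, the enzyme that joins both steps of the glyoxylate shunt, read 7051 and idha-1 read 5228. The vacuolar proton pump, which acidifies organelles, had 28 of 30 probe sets at or above the 75th percentile, with vha-12 at 7831, vha-9 at 6903, vha-8 at 5047 and vha-13 at 4833 (704 on its dimmest probe set). Of 4 ADP/ATP translocase genes, ant-1.1 read 15423 and the other 3 lay under the median.

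Yolk, oocyte and eggshell genes made up the reproductive part of the bright signal. All 10 vitellogenin probe sets lay at or above the 75th percentile, with a median of 16387. After vit-6 and vit-5, vit-4 read 18008 (4450.3 on its dimmest probe set), vit-2 read 9653 and vit-1 read 717. Oocyte and eggshell genes held 1.96% of the signal, and 72 of 81 probe sets lay at or above the 75th percentile. This family also held germline genes, among them gld-1, glh-1 and glh-3. The eggshell permeability gene perm-4 read 19532, with 46.7 on the dimmest of its 4 probe sets. The chondroitin proteoglycans cpg-2 and cpg-1, which form an eggshell layer, read 15089 and 13873. The eggshell gene perm-2 read 11697. The yolk receptor gene rme-2 read 6812. The oocyte maturation regulators oma-2 and oma-1 read 5938 (1384 on the other probe set of oma-2) and 2590.3. The gene lin-41, which keeps oocytes from maturing early, was the dimmest of the 15 oocyte markers at 1794. All 15 thus lay in the brightest 25%, which holds 25% of all probe sets.

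Germline markers, some of them members of the oocyte and eggshell family, were bright as well. Of 12 germline markers, 11 lay in the brightest 25%. The translational repressor gld-1 read 5123, the axis protein him-3 of meiotic chromosomes read 3122, and the P granule genes pgl-1 and glh-1 read 2863 and 2255. The stem cell regulator fbf-1, at 499, was the 1 marker below the 75th percentile. Among cell cycle and replication genes 62 of 97 probe sets lay at or above the 75th percentile, led by the B-type cyclin cyb-3 at 8228. Meiosis genes had a median of 519, with 21 of 45 probe sets at or above the 75th percentile and 1 under the median. Of Argonautes, the small RNA binding proteins, prg-1, the Piwi protein, was brightest at 3398, and the spermatogenesis Argonaute alg-3, named because it stood at the other end, read 8.84. Histones had 46 of 65 probe sets at or above the 75th percentile and were led by the linker histone hil-5 at 8508.

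Sperm genes stood lower than oocyte genes. The major sperm proteins, small cytoskeletal proteins of the crawling nematode sperm, had a median of 429.9 over 31 probe sets and a highest value of 1185, and the brightest assigned to 1 gene was msp-65 at 1183. None of the 31 lay among the brightest 5%, which holds 5.00% of all probe sets. At or above the 75th percentile lay 12 (38.7%), where 25% of all lie. Under the median lay 2 (6.45%), where 50% of all lie. Of the 31 probe sets, 30 were of the s or x type, so single msp genes cannot be told apart. The other sperm genes were at background, with a median of 37.2 over 77 probe sets and 66 of them under the array's median. Just 1 of the 77 lay at or above the 75th percentile: spe-39, a gene of vesicle traffic that is also used outside sperm, at 1183. Of 29 measured sperm markers, msp genes included, 8 lay under the median and 6 in the brightest 25%. Among those that are not msp genes, ssq-1 read 168 (6 on its other probe set) and fer-1 73.7. The sperm phosphatases gsp-3 and gsp-4 read 58.5 and 47.1. The markers spe-9 and spe-11 read 19.4 and 3.30.

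Male genes were dim. All 17 measured markers lay under the median, where 50% of all probe sets lie, and 11 of them lay under the 25th percentile. The highest was cwp-4 at 103. The polycystins pkd-2 and lov-1, which male sensory neurons use in mating, read 1.57 and 3.65. The seminal protease try-5 read 7.09 and the sex-determination gene mab-3 read 7.396. These values went with the label of hermaphrodites.

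Genes of embryonic cell fate lay on both sides of the array's median, and most molting genes lay above it. Of 13 measured genes of embryonic cell fate, 8 lay under the median, where 50% of all probe sets lie. The endoderm factors end-3, med-1 and end-1 read 53.5, 48.3 and 191, and tbx-37 read 2.64, while skn-1, which is also active in the adult, read 1361. The homeobox factor pal-1, a maternal messenger of the early embryo, was the brightest homeobox gene at 2186. Larval molting genes had a median of 269.9 over 11 genes, against 141 for the array. Of the 11, 2 lay under the array's median and 3 in the brightest 25%, which holds 25% of all probe sets. These 3 were the apical matrix genes noah-1 at 3083 and noah-2 at 1265, and mlt-11 at 712 (2.77 on its dimmest probe set). Of 9 dauer and starvation genes 4 lay under the median and 2 in the brightest 25%, near the shares of all probe sets. These 2 were lea-1 at 6710.3 (71 on its dimmest probe set) and dct-1 at 1465. The dauer-stage genes cut-1, col-2 and col-40 read 14.2, 65.4 and 40.7.

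**Figure D4:**
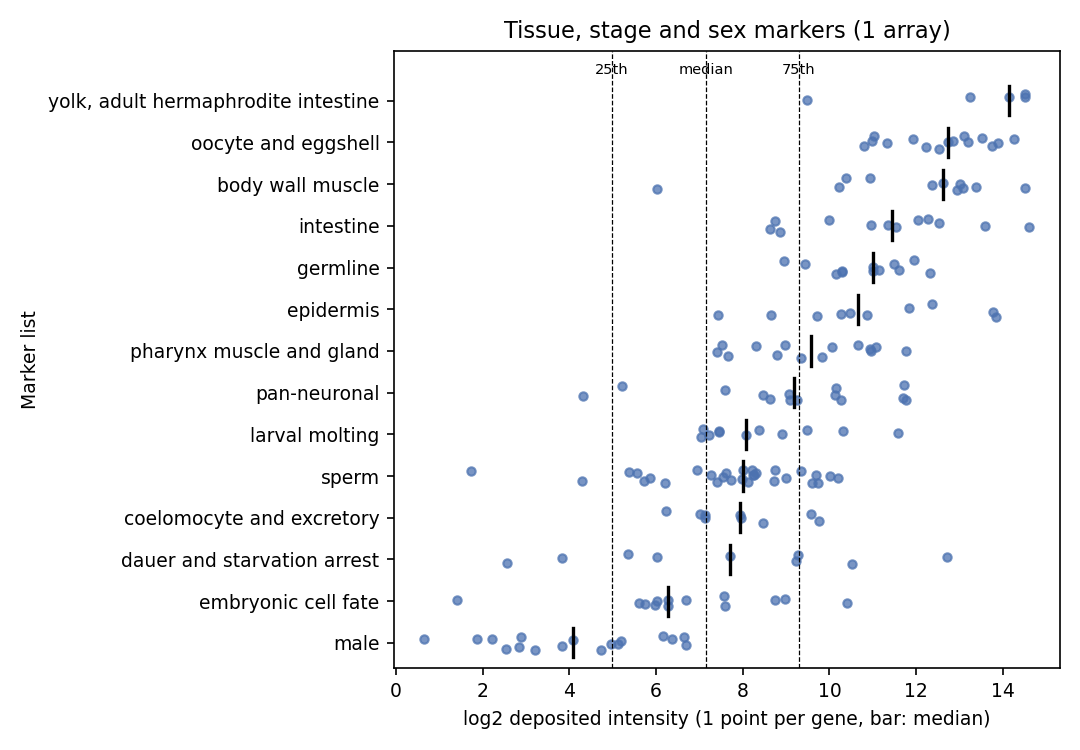
log2 deposited intensity of the marker genes on the untreated array, 1 point per gene and a bar at each list's median, ordered by median, with dashed lines at the 25th percentile, the median and the 75th percentile. All 15 oocyte and eggshell genes lie right of the 75th percentile, and all 17 male genes lie left of the median.

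Somatic tissues were represented in different strength. Of 11 body wall muscle markers 10 lay in the brightest 25%, and the myogenic factor hlh-1, at 65.4, did not. After mlc-2 came unc-15 (paramyosin) at 10754, unc-54 (the major myosin heavy chain) at 8636, lev-11 (tropomyosin) at 8273 and unc-27 (troponin I) at 6304. The tropomyosin gene lev-11 had 7 probe sets, the dimmest at 10.9. Muscle genes as a family held 1.66% of the signal, and pat-10, a troponin C, read 12221. Actins were all bright, with act-4 at 12665, act-3 at 10168 and act-5, the actin of intestinal microvilli, at 4248. Tubulins were mixed, with a median of 574 over 20 probe sets and tbb-2 at 12394. Intermediate filaments had 11 of 14 probe sets at or above the 75th percentile: the gut gene ifb-2 read 4930.3, the lamin lmn-1 4195 and the epidermal ifb-1 3947.

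Intestinal markers were led by digestive proteases, and the factors that specify the tissue were among the dimmest. Of 12 measured markers 9 lay in the brightest 25%. After asp-1 came the cathepsin B-like protease cpr-1 at 12248 and cpr-6 at 5929, while the GATA factors elt-2 and elt-7 read 394 and 426. The marker ges-1, which is not such a factor, lay near them at 463. Neuronal markers spread over a wide range: the neuropeptide-processing enzymes egl-3 and egl-21 read 3481 and 3342 and the synaptobrevin snb-1 read 3372. In contrast unc-31 and rgef-1 read 36.98 and 20.0. Neuropeptides of the FMRFamide class had 18 of 32 probe sets at or above the 75th percentile, with flp-9 at 2381. Neuropeptide receptors, grouped with amine receptors, met the background rule. That receptor family had 100 of 125 probe sets under the median and none at or above the 75th percentile. Just 18 lay under the 25th percentile, and the family's median of 76.3 lay above the yeast, trp and gly-14 control probe sets. The family lost the call without s and x type probe sets. Insulin-like peptides had 16 of 25 probe sets under the median, and ins-17 was brightest at 671.

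The cuticle collagens were the second largest holder of signal and also an uneven one. They held 3.62% of the signal with 183 probe sets. Of these, 64 lay at or above the 75th percentile and 48 among the brightest 5%, while 92 lay under the median and 47 under the 25th percentile. The family's lower quartile was 31.3, its median 135 and its upper quartile 3471. The brightest genes after col-125 and col-119 were col-93 at 19917 and sqt-3, a collagen needed for body shape, at 14679. Of 10 measured epidermis markers, several of them collagens, 8 lay in the brightest 25%. The adult-stage collagen col-19 read 3648, dpy-13 read 14062 and dpy-7 read 405, whereas rol-6 read 172. Collagen sequences are alike, and 85 of the 183 probe sets were of the s or x type and 17 were assigned to several genes. Without s and x type probe sets, the family's share of the signal was 0.842%.

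Secreted, gut and stress families ran between bright and dim members in different shares. Aspartic and cysteine proteases had 19 of 31 probe sets at or above the 75th percentile, 14 of them among the brightest 5%, and 9 under the median. C-type lectins, which bind sugars, some of them induced by infection, were at background with 191 of 251 probe sets under the median, yet clec-63 read 18191, clec-87 16594 and clec-88 7510.3. Fatty acid and retinol binding proteins ran between far-2 at 15981 and far-4, named as the dimmest, at 1.05. The saposin-like spp-1 read 8148 on 1 probe set and 28.5 on the other. Among lysozymes lys-4 led at 3237, with 9 of 19 probe sets at or above the 75th percentile and 9 under the median. The family of ferritins and metallothioneins, which store or bind metals, also held the cdr genes. Of its 12 probe sets 9 lay at or above the 75th percentile, while cdr-4 at 184, cdr-1 at 121 and cdr-3 at 5.12 did not. The bright call was lost with 1 value per gene and without s and x type probe sets. The ferritin ftn-2 read 6235 (755 on its dimmer probe set), mtl-2 2950.2, mtl-1 2677 and ftn-1 1422. Families of enzymes that modify foreign compounds differed in these unexposed worms. Cytochrome P450 genes had 55 of 80 probe sets under the median, where 50% of all lie, and cyp-31A2 was brightest at 1299.98. UDP-glucuronosyltransferases had 43 of 68 under the median and ugt-58 was brightest at 1499. Glutathione S-transferases had 22 of 46 under the median and 12 at or above the 75th percentile, near the array's shares of 50% and 25%. Their brightest gene was gst-1 at 3535. Short-chain dehydrogenases had 13 of 35 under the median and 9 at or above the 75th percentile. Antioxidant enzymes had a median of 539.9, with the peroxiredoxin prdx-2 at 9326.

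The families at background were led by receptors for smells and tastes. Nematode chemoreceptors are 7-transmembrane proteins, many of them made in a few sensory neurons each. Of 1360 chemoreceptor probe sets, 1354 lay under the array's median and 926 under its 25th percentile, where 25% of all lie. Their median was 19.7, just above the highest yeast and trp control probe sets (18.9 and 16.9) and under the highest for gly-14 (30.5). Chemoreceptors held 0.216% of the signal with 6.03% of the probe sets. The superfamilies were alike, with medians of 20.4 for Str, 17.3 for Sra, 20.98 for Srg and 19.2 for the solo families. Just 1 of the 1360 lay at or above the 75th percentile, srr-4 at 906. The receptor guanylyl cyclases of sensory neurons had 38 of 41 probe sets under the median, and gcy-28, which is expressed broadly, read 1425 (131 on its dimmest probe set). All 58 probe sets of irld receptors, which resemble the outer part of the insulin receptor, lay under the median.

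The other background families were large and dim, with single members that stood out. F-box proteins, which choose substrates for ubiquitin ligases, had 290 of 336 probe sets under the median and 3 at or above the 75th percentile: fbxa-215 at 1947, fbxa-101 at 1102 and fbxa-210 at 1057. MATH and BATH proteins, adaptors of a different ligase, had 86 of 114 under the median, a call lost without s and x type probe sets and with the mean over each gene's probe sets, with bath-42 at 4094, bath-41 at 2063 and bath-44 at 1543. Of 37 globin probe sets 30 lay under the median, and glb-1 at 6882 was the 1 at or above the 75th percentile, though the family lost the call without s and x type probe sets. The astacin and trypsin-like proteases had try-14 at 4578, nas-11 at 900.2 and try-1 at 806. The SCP and venom-allergen-like proteins had 25 of 33 under the median but scl-2 at 7304, scl-5 at 1990 and scl-3 at 1282. The pals genes, O-acyltransferases and chitinase-like proteins had none at or above the 75th percentile. In all, 48 of the 2592 probe sets in background families reached the 75th percentile, and 12 of the 17 families had none among the brightest 5%. Transcription factor families did not meet the rule and differed: 209 of 312 probe sets of nuclear hormone receptors lay under the median, 17 of 26 of bHLH factors and 59 of 107 of homeobox genes. Among nuclear hormone receptors nhr-88 was brightest at 2395 (92.6 on its dimmest probe set).

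**Figure D5:**
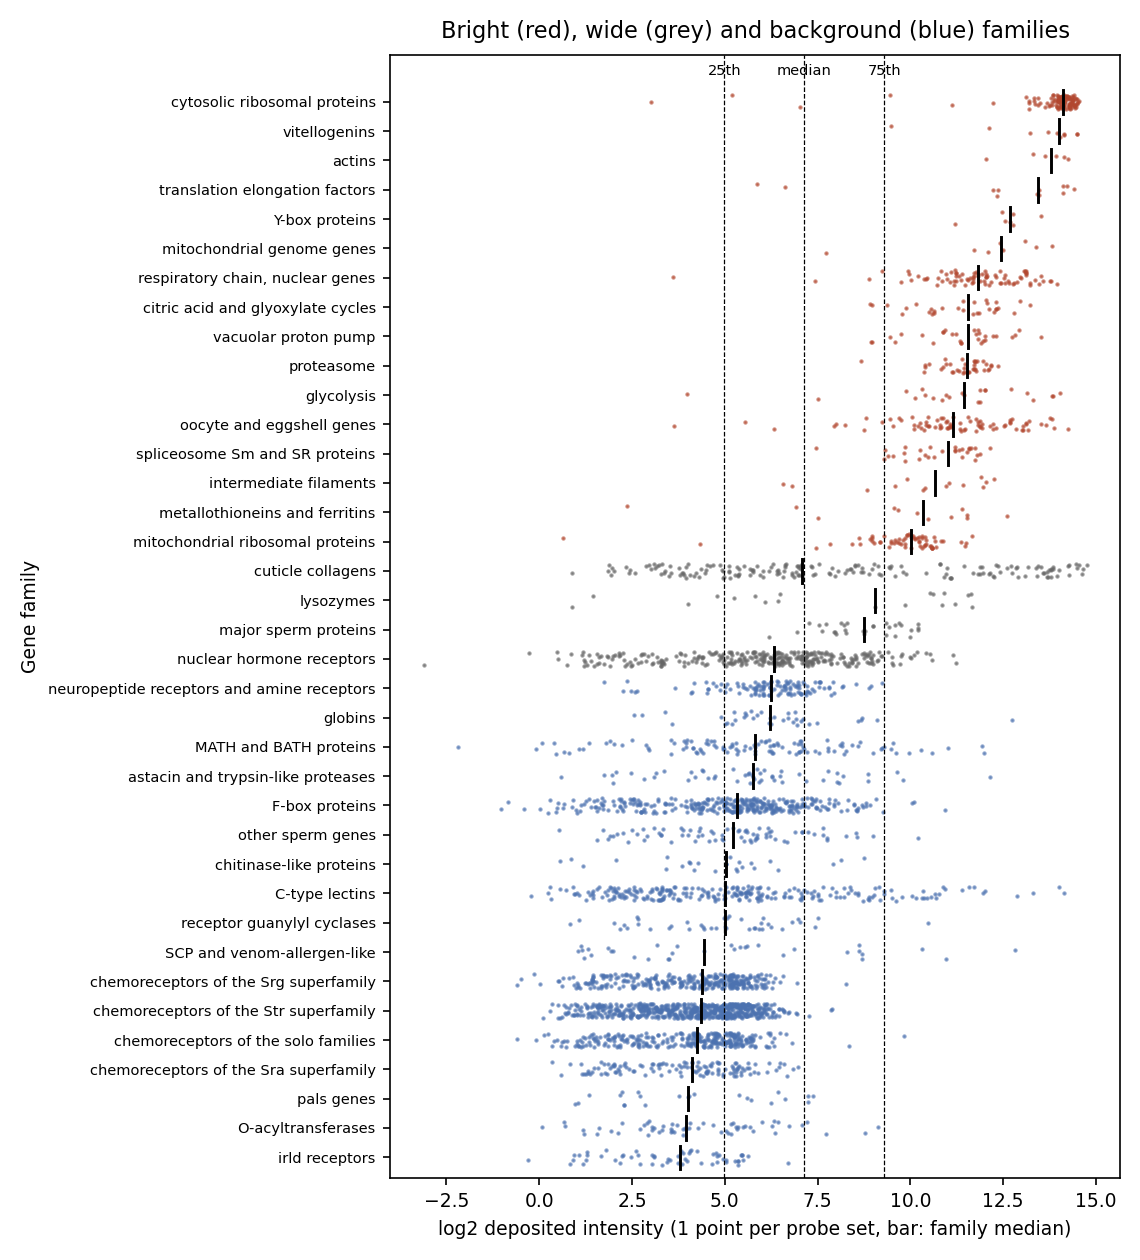
log2 deposited intensity of every probe set in the 16 bright families (red), in 4 families with a wide range (grey) and in the 17 background families (blue), with a bar at each family's median and dashed lines at the array's 25th percentile, median and 75th percentile. Ribosomal proteins cluster at the top of the range, cuticle collagens cover nearly all of it, and the chemoreceptor points lie almost wholly left of the median.

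Brightness was also set beside position and size, which the ranking did not use. Chromosomes and gene spans came from RefSeq's WBcel235 table, which held 17077 of the genes. Of the brightest 5% of genes, 77 of 854 or 9.02% were on the X chromosome, against 13.8% of all genes (Wilson 95% interval 7.27% to 11.1%, for counting error only, with genes that are not independent). Of the dimmest 25% of genes 9.96% were on X, so the X share was below that of all genes at both ends, and X genes held 10.0% of the signal. Chromosome V, home to many chemoreceptor genes, carried 37.01% of the dimmest 25% and 18.3% of the brightest 5%, against 25.3% of all genes, and 66.0% of its genes lay under the array's median. Chromosomes I and III leaned the other way, with 19.2% and 18.7% of the brightest 5% against 14.5% and 13.2% of all genes. The median genomic span was 945 bases in the brightest 1% of genes, 1434 in the brightest 5% and 2233 in the brightest 25%, against 2185 over all genes. In the dimmest 25% it was 1664 bases.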

How the data were processed

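Each deposited value is the linear intensity of 1 probe set on a 1-colour array, which the authors had scaled: the mean over all probe sets of the untreated array, with 2% left out at each end, was 500.1. How probes were summarised, with which software and on which genome build, is not given in the sources used here. The table holds no detection calls. Precision is limited by the number of arrays, here 1. Columns of the 3 exposed arrays were not used.

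The 77 control probe sets were set aside. Intensities were ranked and summed as deposited, with no floor or log, in Python 3.11.15 with pandas 2.3.3. Genes came from GEO's platform annotation. A gene has the value of its brightest probe set among those assigned to 1 gene. Probe sets assigned to several genes count in families and sums but not in gene values. A probe set belongs to a family if all its genes match that family's symbols. Genes named are the 30 brightest, up to 4 of each bright or at least 1% family, up to 3 bright members of each background family, the brightest of other families, and marker genes, with exceptions said to be named for their values. The families, marker lists and rules were chosen with earlier results of these data known, and the symbol patterns were completed after the annotation was seen.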

Additional observations from a re-analysis of the deposited data

How the results depend on the processing

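The number of background families depended on the rule. It was 17 as reported, 8 where the family's median had to lie under the 25th percentile and 7 where at least 90% of members had to lie under the median. The 4 chemoreceptor groups, O-acyltransferases and irld receptors met all 3 rules. It was 14 without s and x type probe sets, where MATH and BATH proteins, globins and the neuropeptide and amine receptors lost the call. With 1 value per gene it was 18 (highest probe set) or 19 (mean), and neprilysins came in under both. With the mean, ligand-gated channels and TWK potassium channels also came in, and MATH and BATH proteins dropped out. The other counts and shares stayed within 1.5 times of their value under every alternative run: 13 to 17 bright families, 6 to 7 families with at least 1% of the signal, 22.8% to 24.2% of signal in the brightest 1% and 8.19% to 10.5% of bright genes on X. Which families were bright did change. Metallothioneins and ferritins lost the call with 1 value per gene, without s and x type probe sets and where the family's median had to reach the 90th percentile, and mitochondrial ribosomal proteins lost it under the last. Y-box proteins and actins with 1 value per gene, and these with vitellogenins and elongation factors without s and x type probe sets, fell under the smallest size of 5, as actins did without probe sets of several genes. Galectins came in with 1 value per gene, without s and x type probe sets and under the 90th percentile rule. Nucleoporins came in with 1 value per gene, and muscle genes with the highest probe set per gene. Intracellular lipid-binding proteins came in without s and x type probe sets. Under the 90th percentile rule, fatty acid and retinol binding proteins and the cysteine and aspartic proteases came in too. Shares of single families moved most without s and x type probe sets, by over 1.5 times in 39 of 86. The ribosomal share was then 8.47% and that of vitellogenins 0.376%. No paired analysis was possible because each group has 1 sample and no groups were compared.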

Other observations

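Some genes are given here for their values, which were seen before they were chosen. The 3 brightest genes outside the families were ZK813.1 at 20467, the ribosome-associated scaffold gene rack-1 at 18155 and ndk-1, a nucleoside diphosphate kinase, at 17322. The non-coding RNA gene tts-1 read 12849, rank 123 among genes, and tts-2 read 3497. The nematode-specific peptide genes nspa, nspb, nspc and nspe held 0.501% of the signal, of which almost all came from probe sets assigned to several of these genes: without those the share was 0.0082%. Of 9 coelomocyte and excretory markers 2 lay in the brightest 25%, the proton pump gene vha-5 at 861 and exc-9 at 763. Of 14 pharynx markers 8 did, with the pharyngeal myosins myo-1 and myo-2 at 3470.5 and 1972.

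Probe sets of the same gene often disagreed. Over 2981 genes with several probe sets, the brightest was a median of 1.98-fold above the dimmest, and in 24.8% of these genes it was at least 4-fold above. Among probe sets of the unshared type alone the median was 2.17-fold over 1205 genes.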
